A study of Homo sapiens with 6 samples.

Results

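The genes described here are 53 genes of the machinery that carries a cell through mitosis, taken by symbol from the deposited count table: 13 kinases, cyclins and phosphatases of mitotic entry, 6 regulators and targets of the anaphase-promoting complex (APC/C), 12 mitotic kinesins, 10 spindle proteins, 5 cytokinesis genes and 7 genes of condensin I and the chromosome. All 53 were among the 21850 genes listed, none was absent, and all 53 passed the filter on low counts that left 13971 genes for testing. The cells were MM.1S, an established line of human multiple myeloma, infected with either a PRKCN shRNA (shPRKCN, 3 libraries) or a scramble shRNA (shNT, 3 libraries, labelled as the WT genotype) and collected on day 3, so both groups carried a virus and a hairpin. The 3 shPRKCN libraries share a single hairpin label, and the study's methods describe sorting of marker-positive (GFP or NGFR) cells after infection for functional assays without saying whether the cells for RNA were sorted. Nothing in the labels says that the 3 libraries of a group came from separate cultures, so the p-values measure only the spread between these libraries.

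Entry into mitosis is set by CDK1 bound to A-type and B-type cyclins, which WEE1 and PKMYT1 hold back by phosphorylation and the CDC25 phosphatases release. Kinesins and spindle proteins then build the bipolar spindle, condensin and topoisomerase II compact and disentangle the chromosomes, and the APC/C marks cyclins and securin for destruction so that sister chromatids part and the cell is cleaved by an actomyosin ring. Most of these genes are transcribed in the late cell cycle, when the MuvB complex with MYBL2 and FOXM1 occupies a short promoter element named CHR, often beside a CCAAT box bound by NF-Y, and in resting cells the same MuvB core with E2F4 or E2F5 and RBL1 or RBL2 represses them.

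Library totals ranged from 35625564 to 37730003 counts. Libraries of a group differed from each other by 3.38 to 4.80 in chi-square per degree of freedom over genes, and libraries of different groups by 63.8 to 70.2, so no library repeated another. The targeted gene, PRKCN (listed as PRKD3), stood at 1272, 1298 and 1216 CPM (counts relative to the library total, scaled by edgeR's TMM factors here and below) in shNT and at 535, 491 and 526 CPM in shPRKCN. All 3 shPRKCN libraries were below all 3 shNT libraries, at 41.0% of the shNT mean (log2 fold change -1.29, SE 0.0343, edgeR adjusted p = 8.2e-43). The plasma cell identity was checked on 7 markers, of which SDC1 (896 ± 21.6 CPM in shNT, SD, n = 3) and XBP1 (913 ± 19.1 CPM) were abundant in shNT. In shPRKCN 4 of these 7 were called lower, among them IRF4 with 624 ± 12.5 CPM against 173 ± 3.19 CPM and XBP1 with 375 ± 9.06 CPM, while SDC1 was 1017 ± 32.0 CPM. Of 10 markers of other cell types 6 passed the filter, and the summed FPKM of all 10 was 23.5 to 28.2 in shNT and 30 to 33.6 in shPRKCN. Within that list CD3E rose from 10.9 ± 0.493 to 28.8 ± 2.03 CPM, HBB, PECAM1 and CD68 fell, and the T-cell and monocyte markers CD3D, LYZ and CD14 did not pass the filter, CD3D with at most 1 count in any library. The part of these marker changes in the values below was not tested.

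Of the 53 mitotic genes 49 were called lower in shPRKCN, that is past both the adjusted p of 0.05 and the log2 fold limit of -0.58 (edgeR's quasi-likelihood test, Benjamini-Hochberg adjustment over all 13971 genes), which is 92.5% of them against 10.6% of all genes tested. None of the 53 was called higher, against 6.15% of all genes tested, and the count was also 0 by DESeq2 and by edgeR at an unadjusted p under 0.05. All 53 log2 fold changes were negative. Without the fold limit 52 of 53 (98.1%) were lower at an adjusted p under 0.05, against 27.8% of all genes tested. In 52 of 53 the highest shPRKCN library lay under the lowest shNT library, against 29.8% of all genes tested. The median log2 fold change was -0.89 over the 53 genes and 0.0012 over all genes tested. The 49 genes called lower were left at 32.5% to 63.5% of their shNT level. In these bulk libraries, fewer cells in the phase that transcribes these genes and less RNA per cell cannot be told apart. All values are of RNA, and neither the proteins nor their activities were measured in these libraries.

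**Figure D1:**
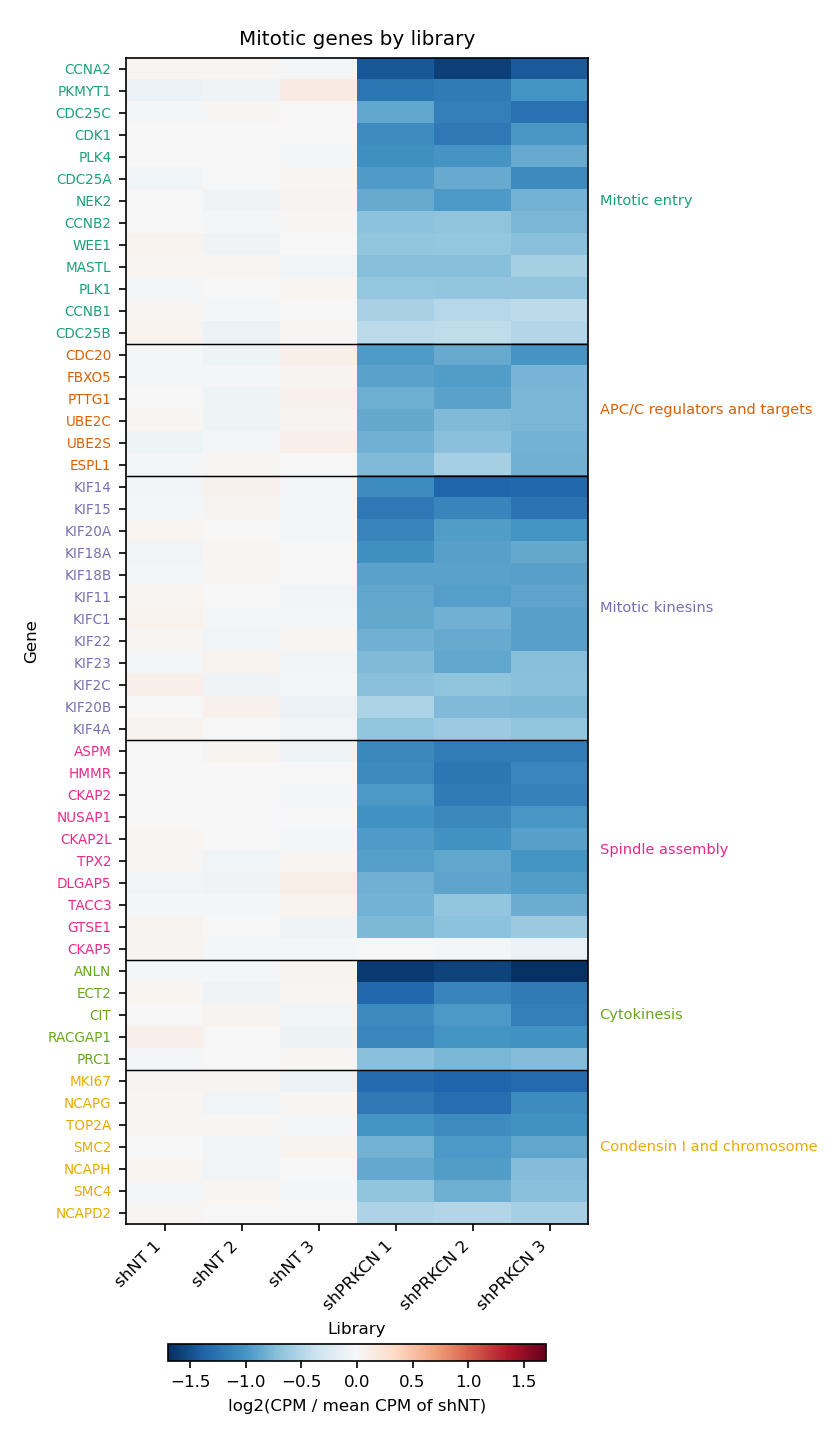
Each row is a gene, each column a library, and the colour is the log2 of the library's CPM over the gene's mean CPM in shNT, with blue for lower and red for higher; lines separate the 6 groups of genes. The 3 shPRKCN columns are blue in nearly every row, palest at CKAP5, CDC25B, CCNB1 and NCAPD2 and darkest at ANLN and CCNA2.

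The libraries of a group gave nearly the same picture. Relative to the shNT mean, the median over the 53 genes was 0.0063, -0.0053 and 0.0029 on the log2 scale for the shNT libraries. For the shPRKCN libraries it was -0.89, -0.92 and -0.90. The gap between groups was far larger than the spread within either. Every one of the 53 genes had at least 279 counts in each library, so counting error was small, and the SE of the log2 fold changes ran from 0.0341 (TOP2A) to 0.0943 (CDC25C). On the length-corrected FPKM scale the shNT levels spanned 2.71 ± 0.0989 FPKM (SD, n = 3) for CIT to 108 ± 2.11 FPKM for SMC4, with a median of 21.3. Abundant and rare genes were both lowered: across the 53 genes Spearman's rho between the shNT FPKM and the log2 fold change was 0.22, a description over genes that share the same 6 libraries.

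**Figure D2:**
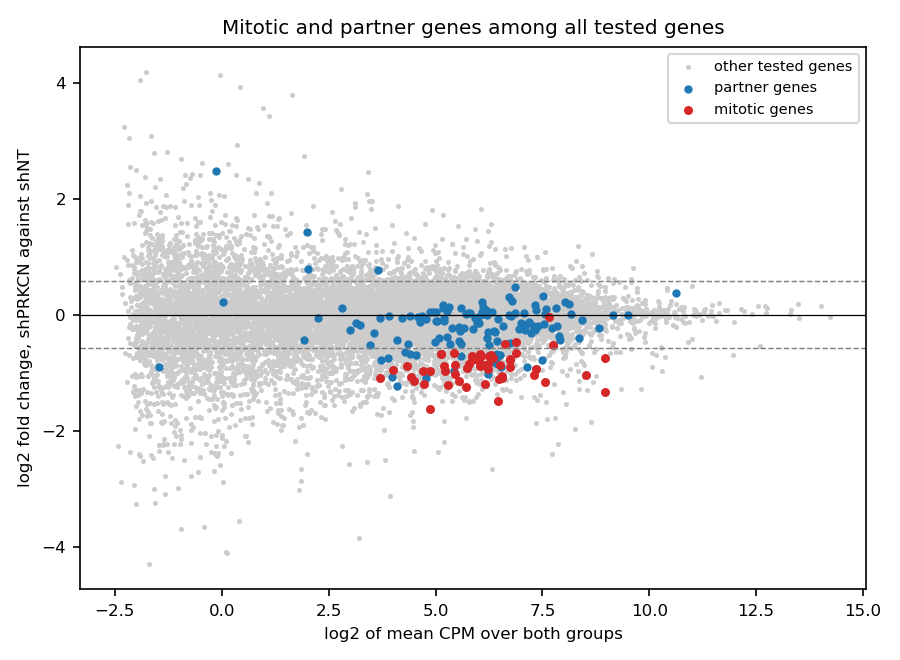
Points are tested genes, with the log2 of the mean CPM over both groups on the x axis and the log2 fold change (shPRKCN against shNT) on the y axis; red marks the 53 mitotic genes, blue 126 tested genes of related machinery, grey all others, and dashed lines the fold limits. The red points form a band below the lower limit over most of the abundance range. The blue points lie on both sides of 0, with 87 of 126 below it and a median of -0.14. Of these 126, 15.9% were called lower (10.6% of all genes tested) and 3.17% higher (6.15%). At the adjusted p alone 50.8% were lower (27.8% of all genes tested) and 14.3% higher (26.5%).

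Promoter windows of the RefSeq table (GRCh38.p14, 250 bases before to 50 after each start) were found for 48 of the 53 genes, in 63 windows, some of which overlap where a gene has several starts. WEE1, PKMYT1, UBE2C, TPX2 and RACGAP1 had none in the table. The windows were searched on both strands. CHR was taken as the letters TTTGAA, which a match on the opposite strand shows as TTCAAA, or as the variant TTCGAA, which reads alike on either strand. The CCAAT box was taken as these 5 letters, which a match on the opposite strand shows as ATTGG. The motifs can share 1 base, as they do in MKI67, and such cases were counted under both. A CHR match lay in 65.1% of the 63 windows (41), against 12.2% of the 15948 windows of tested genes and 16.4% of all 35116 windows in the table. CCAAT was found in 68.3% of them (43), against 35.1% and 34.6%. Both together occurred in 50.8% (32), against 4.92% and 6.38%. A match is a description of letters and not a bound site. Only these letters were searched, so a window without a match is not shown to lack the element.

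The stretches below show a CHR match of 9 genes, in capitals, with 12 bases on either side, read in the direction of the gene. They were picked from the matches to show entry regulators, an APC/C activator, a kinesin, genes with large falls (ANLN, NCAPG and MKI67), and CKAP5, whose level did not differ at the threshold. The most lowered entry, kinesin and spindle genes (CCNA2, KIF14 and ASPM) are not shown, and CCNA2 had no match to the CHR letters searched.
PLK1, chr16:23678848-23678877, plus strand: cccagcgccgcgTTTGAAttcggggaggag
CCNB2, chr15:59105105-59105134, plus strand: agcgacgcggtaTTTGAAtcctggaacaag
CDC25C, chr5:138331817-138331846, minus strand: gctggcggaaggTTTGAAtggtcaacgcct
CDC20, chr1:43358904-43358933, plus strand: cgacggttggatTTTGAAggagccaatagg
KIF23, chr15:69414282-69414311, plus strand: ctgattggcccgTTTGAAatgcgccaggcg
ANLN, chr7:36389830-36389859, plus strand: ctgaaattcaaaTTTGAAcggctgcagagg
NCAPG, chr4:17810932-17810961, plus strand: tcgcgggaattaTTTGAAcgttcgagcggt
MKI67, chr10:128126435-128126464, minus strand: tcttcgttttcgTTTGAAttgggcgggcgc
CKAP5, chr11:46846336-46846365, minus strand: gcccacaggcctTTCAAAtggaccaataaa
In PLK1, CCNB2 and MKI67 the match began 29 bases before the start, in NCAPG 35, in KIF23 55, in CDC20 65, in ANLN 20 and in CKAP5 73. In CDC25C, which has overlapping windows, the match began 30 bases before a start and 44 after another. The KIF23 and MKI67 stretches also held ATTGG and the CDC20 and CKAP5 stretches CCAAT, and the ANLN match was preceded directly by TTCAAA. The windows of CDC20, MKI67 and CKAP5 held a further CHR match outside the stretch printed, 178 and 47 bases before the start in CDC20 and MKI67 and 18 after it in CKAP5. Matches within the last 100 bases before the start were found in 36.5% of the windows of mitotic genes, against 3.25% of the windows of tested genes. By group, the share of windows with CHR was 45% for mitotic entry, 42.9% for the APC/C regulators, 84.6% for the kinesins, 77.8% for the spindle proteins, 100% of 5 windows for cytokinesis and 66.7% for condensin I and the chromosome. Among related genes outside the 53 it was 66.7% of 3 windows for condensin II and 60% of 5 windows for the Aurora kinases and chromosomal passenger complex.

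Genes with and without these letters had medians close to each other. The median log2 fold change was -0.91 for the 37 genes with a CHR match and -0.85 for the 11 without, and it was -0.89 both for the 39 with CCAAT and for the 9 without. CCNA2 and CCNB1, which sit near opposite ends of the mitotic entry group, both had a window with CCAAT and without the CHR letters. CKAP5 held CHR as well as CCAAT.

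Among the 13 genes of mitotic entry 11 were called lower, the other 2 (CCNB1 and CDC25B) were lower at the adjusted p alone, and the median log2 fold change was -0.87. CCNA2 encodes cyclin A2, the cyclin of S phase and early mitosis (chr4:121816444-121823883). It was measured at 131, 131 and 126.5 CPM in shNT and at 47.7, 43.0 and 47.9 CPM in shPRKCN, without overlap. The level left was 35.7% of shNT (log2 fold change -1.49, SE 0.0452, edgeR adjusted p = 1.31e-39). Its partner kinase CDK1 stood at 127.5, 127.4 and 127.7 CPM in shNT, the tightest group of the 53, and at 60.7, 55 and 64.1 CPM in shPRKCN (log2 fold change -1.09, SE 0.0447, edgeR adjusted p = 2.32e-32). The B-type cyclins, which drive mitosis itself, had smaller log2 fold changes. CCNB1 had 116.5, 114 and 116 CPM in shNT and 78.4, 82.2 and 84.9 CPM in shPRKCN, so the groups were apart but the log2 fold change of -0.50 (SE 0.0417) stayed within the fold limit. CCNB2 was called lower at -0.71. The log2 ratio of CCNA2 to CCNB1 differed by -0.99 between groups (shPRKCN minus shNT, SD over libraries 0.039 in shNT and 0.109 in shPRKCN), 1 of 6 pairs picked after their values were seen. The exact two-sided permutation p was 0.1 for each of the 6 (also 0.1 after Benjamini-Hochberg adjustment), the smallest that 3 libraries against 3 allow. The other pairs differed by -0.42 (CDK1 to WEE1), -0.64 (CDC25C to CDC25B), -0.79 (CDC20 to FZR1), -1.12 (ASPM to CKAP5) and -0.66 (NCAPG to NCAPD2, below).

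Transcripts of both arms of the switch that sets CDK1 activity were lower. PKMYT1, the membrane-bound inhibitory kinase of CDK1 (chr16:2972808-2980446), was read at 28.9, 29.6 and 34.1 CPM in shNT against 13.1, 13.5 and 15.2 CPM in shPRKCN (log2 fold change -1.15, SE 0.0733, edgeR adjusted p = 2.84e-22). The nuclear inhibitory kinase WEE1 fell by 0.68 on the log2 scale. Of the phosphatases that remove these marks, CDC25C (chr5:138285265-138338355) gave 17.4, 18.0 and 17.9 CPM in shNT and 9.61, 7.96 and 7.35 CPM in shPRKCN (log2 fold change -1.10, SE 0.0943, edgeR adjusted p = 2.29e-16). CDC25A, which also acts at the G1/S transition, fell by 0.96. CDC25B, regarded as the starter phosphatase of mitosis, had the smallest change of the group. It was at 142.5, 127 and 139 CPM in shNT and at 98.8, 101 and 96.2 CPM in shPRKCN, apart in every library yet at a log2 fold change of -0.46 (SE 0.0413, edgeR adjusted p = 1.02e-15). So transcripts of activators and inhibitors of CDK1 fell together, and the 3 CDC25 genes did so by unequal amounts, from -0.46 to -1.10.

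The other kinases of the group were all called lower. PLK4, which sets centriole number, fell by 0.97 and NEK2, a centrosome-splitting kinase, by 0.87. MASTL, the Greatwall kinase that restrains the phosphatase PP2A-B55, fell by 0.67, and PLK1, the polo-like kinase of mitotic entry and the spindle, by 0.66. On the FPKM scale PLK1 was the most abundant of the 13 genes in shNT, at 66.6 ± 1.15 FPKM against 42.7 ± 0.588 FPKM in shPRKCN.

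**Figure D3:**
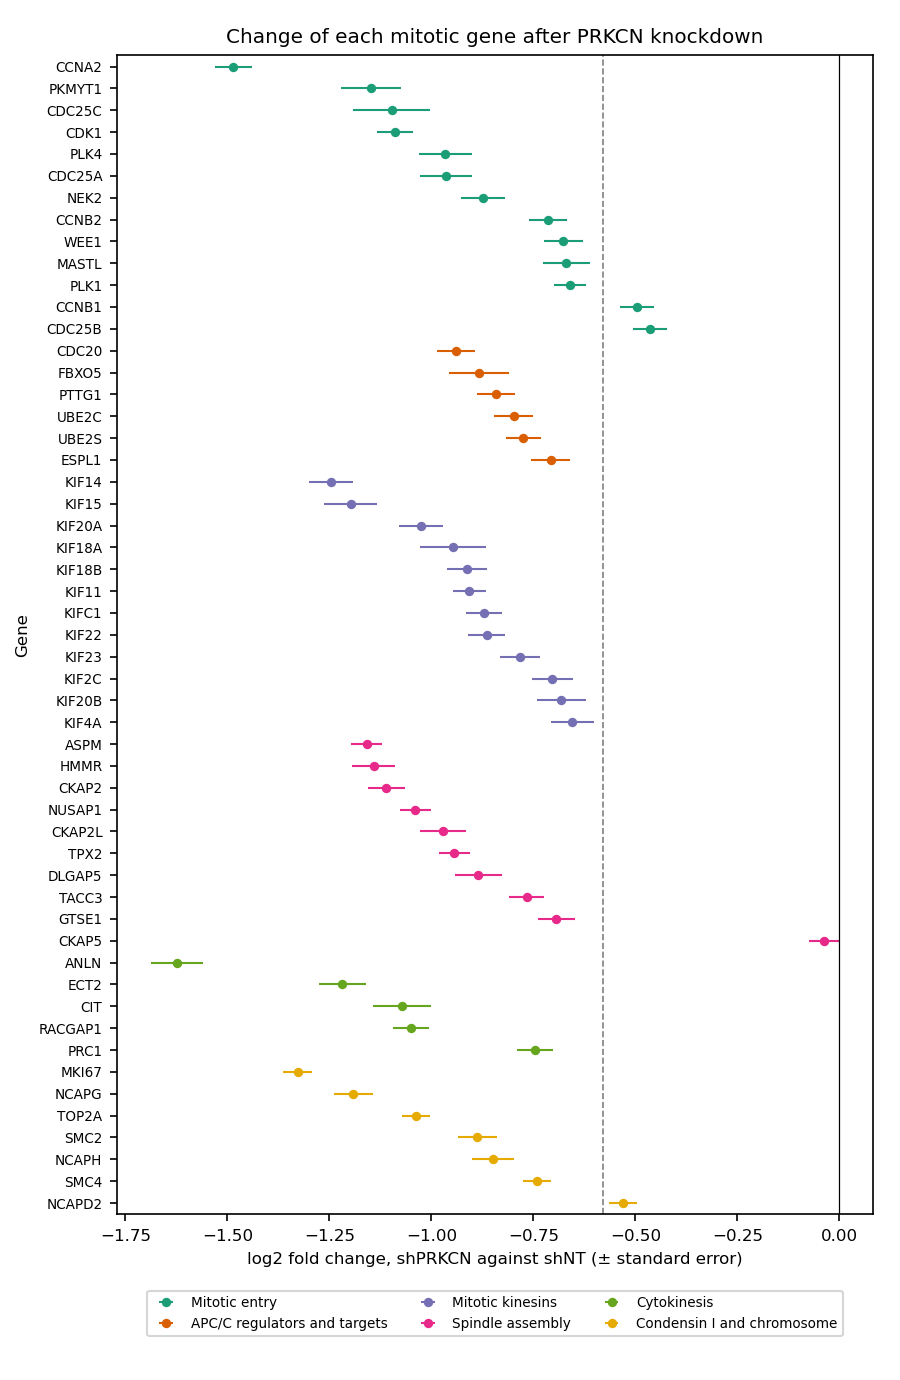
Points are log2 fold changes (shPRKCN against shNT, x axis) of the 53 genes with bars of ± 1 standard error, coloured by group and sorted within it; the dashed line is the fold limit of -0.58. Only CKAP5, CDC25B, CCNB1 and NCAPD2 lie to the right of the limit, and only CKAP5 lies near 0.

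All 6 regulators and targets of the APC/C were called lower, with log2 fold changes between -0.94 and -0.71 and a median of -0.82. CDC20, the activator that directs the complex in mitosis (chr1:43358981-43363203), had 98.1, 94.5 and 105 CPM in shNT and 50.8, 54.97 and 49.3 CPM in shPRKCN (log2 fold change -0.94, SE 0.0472, edgeR adjusted p = 1.44e-27). FBXO5 (EMI1), the inhibitor that keeps the APC/C off until mitosis, went from 25.5, 25.4 and 26.8 CPM to 13.8, 13.4 and 14.9 CPM (log2 fold change -0.88, SE 0.0733, edgeR adjusted p = 5.1e-17). In neither gene did a library of one group reach the other. PTTG1, or securin, which guards sister chromatids until the APC/C destroys it, read 95.3, 91.1 and 100.5 CPM in shNT and 53.8, 50.7 and 55.6 CPM in shPRKCN (log2 fold change -0.84, SE 0.0466, edgeR adjusted p = 2.28e-25). ESPL1, or separase, the protease that securin blocks, was at 92.4, 94.9 and 94.1 CPM against 56.0, 63.2 and 53.2 CPM (log2 fold change -0.71, SE 0.0477, edgeR adjusted p = 4.02e-21). Transcripts of the guard and of the protease were thus both lower. The ubiquitin-conjugating enzymes UBE2C, which starts ubiquitin chains for the APC/C, and UBE2S, which lengthens them, fell by 0.80 and 0.77.

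The catalytic and scaffold core of the same complex was set beside them. Of 14 core subunits and FZR1, the activator that takes over from CDC20 in G1, none of 15 was called in either direction by edgeR or by DESeq2 with the fold limit. Of all genes tested, 10.6% were called lower and 6.15% higher by edgeR, shares that amount to few genes in a list of 15. At the adjusted p alone 5 were lower (33.3%, against 27.8% of all genes tested) and 1 was higher (6.67%, against 26.5%). At an unadjusted p under 0.05 these counts were 5 (33.3%, against 29.7%) and 3 (20%, against 28.7%), so the share of lower genes was near that of all genes. The extremes were ANAPC15 at 52.3 ± 2.41 CPM in shNT and 42.8 ± 3.60 CPM in shPRKCN (log2 fold change -0.29) and ANAPC1 at 93.8 ± 4.60 and 116.5 ± 9.87 CPM (0.31). The median log2 fold change of the 15 was -0.06. FZR1 stood at 67.6 ± 3.11 CPM in shNT and 61.0 ± 1.7 CPM in shPRKCN, a log2 fold change of -0.15 (edgeR adjusted p = 0.00594). CHR was found in 14.8% of the 27 windows of this list, near the 12.2% of tested genes, and CHR with CCAAT in none of them.

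The 12 mitotic kinesins, the motors that push, pull and depolymerise spindle microtubules, were without exception called lower (median log2 fold change -0.89). KIF14, a motor of the midbody that works with citron kinase and PRC1 (chr1:200551497-200620751), had 71.8, 77.5 and 72.4 CPM in shNT and 35.1, 28.97 and 29.4 CPM in shPRKCN (log2 fold change -1.25, SE 0.0550, edgeR adjusted p = 1.38e-30). KIF15, which helps to keep the spindle bipolar, gave 36.2, 38.1 and 36.6 CPM against 15.9, 17.0 and 15.4 CPM (log2 fold change -1.20, SE 0.0648, edgeR adjusted p = 6.9e-26). KIF20A (MKLP2), which carries the chromosomal passenger complex to the central spindle, was at 60.2, 59.1 and 57.96 CPM against 27.2, 30.5 and 29.3 CPM (log2 fold change -1.03, SE 0.0538, edgeR adjusted p = 1.31e-26). In each of these motors the highest shPRKCN library was well under the lowest shNT library. The smallest change of the list belonged to KIF4A, a chromosome-bound motor, with 54.2, 52.5 and 50.6 CPM in shNT and 32.9, 34.1 and 33.0 CPM in shPRKCN (log2 fold change -0.66, SE 0.0529, edgeR adjusted p = 1.67e-17). Thus even the least changed kinesin was left at 63.5% of its shNT level.

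Between these ends lay motors of every function. KIF18A (-0.95), which damps chromosome movements, and KIF18B (-0.91) and KIF2C (-0.70), which shorten microtubules, were lower by their log2 fold changes. KIF11 (Eg5), the motor that slides the spindle poles apart, had -0.91, and KIFC1, the minus-end motor that draws them together, -0.87. The chromosome-arm motor KIF22 had -0.86, the centralspindlin motor KIF23 -0.78 and KIF20B -0.68. A pole-separating and a pole-drawing motor were thus among those called lower.

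Kinesins outside the mitotic list, most of which carry cargo along interphase microtubules or act in cilia, were set beside them, with kinesin light chains. Of 30 such genes 25 passed the filter, and KIF1A, KIF5C, KIF17, KIF19 and KIF26A did not. Among the 25 tested 2 were called lower (8%, against 10.6% of all genes tested), KIF24 (log2 fold change -0.77) and KIF3A (-0.67). Another 3 were called higher (12%, against 6.15%), KIF13A, KIF6 and KIF26B, and the median log2 fold change of the list was -0.07. The rises were in sparsely counted genes: KIF26B had 6, 7 and 17 counts in shNT and 66, 47 and 60 in shPRKCN (log2 fold change 2.48, SE 0.393, edgeR adjusted p = 1.48e-07). The most negative value, -0.90 for KIF5A, rested on 1 to 30 counts per library and did not pass the test (edgeR adjusted p = 0.156).

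Of the 10 spindle proteins 9 were called lower, and the median log2 fold change was -0.96. ASPM, a protein of the spindle poles (chr1:197084127-197146669), stood at 261, 269.9 and 249.7 CPM in shNT and at 121, 114 and 114.5 CPM in shPRKCN (log2 fold change -1.16, SE 0.0380, edgeR adjusted p = 1.04e-37). HMMR, which anchors spindle microtubules at the poles, had 64.4, 64.9 and 64.8 CPM against 30.5, 27.7 and 29.9 CPM (log2 fold change -1.14, SE 0.0524, edgeR adjusted p = 1.22e-29). CKAP2, a microtubule-stabilising protein, gave 123.9, 124 and 122 CPM against 62.5, 53.6 and 55.4 CPM (log2 fold change -1.11, SE 0.0454, edgeR adjusted p = 1.98e-32). The groups stood well apart in all 3. NUSAP1, which bundles microtubules around chromosomes, fell by 1.04, and CKAP2L, the relative of CKAP2, by 0.97. TPX2, the activator of Aurora A on the spindle, fell by 0.94, and DLGAP5 (HURP), a stabiliser of kinetochore fibres, by 0.89. TACC3, which clathrin and CKAP5 join on kinetochore fibres, fell by 0.77, and GTSE1 by 0.69.

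CKAP5 was the exception among the 53. It encodes ch-TOG, a microtubule polymerase that also works outside mitosis (chr11:46743048-46846280), and it was at 210.8, 202 and 202 CPM in shNT and at 205, 202 and 192 CPM in shPRKCN. The groups overlapped, and the log2 fold change was -0.04 (SE 0.0364, edgeR adjusted p = 0.391). Its abundance was not low: at 28.4 ± 0.671 FPKM in shNT it was above ASPM (23.8 ± 0.951 FPKM) and close to CKAP2 (28.9 ± 0.260 FPKM). In shPRKCN CKAP5 stayed at 28.0 ± 0.876 FPKM, while ASPM was at 10.8 ± 0.446 FPKM and CKAP2 at 13.6 ± 1.21 FPKM.

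The 13 genes of the γ-tubulin ring and the centrosome matrix, on which the spindle microtubules are nucleated, had 4 called lower (30.8%, against 10.6% of all genes tested) and a median log2 fold change of -0.44. Those 4 were CEP152 (37.1 ± 0.554 to 17.4 ± 0.818 CPM, log2 fold change -1.09), which recruits PLK4 to the centriole, CDK5RAP2 (-0.72), PCM1 (-0.70) and NEDD1 (-0.64). At the other end TUBGCP6 was higher at the adjusted p, at 97.4 ± 2.72 CPM in shNT and 136.5 ± 3.14 CPM in shPRKCN, with a log2 fold change of 0.49 within the fold limit.

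The 5 cytokinesis genes were all called lower and had the most negative median of the 6 groups, -1.07. ANLN encodes anillin, the scaffold that ties actin, myosin, septins and RhoA together in the cleavage furrow (chr7:36389862-36453791), and it had the largest fall of the 53. It was read at 42.9, 43.4 and 45.3 CPM in shNT and at 14.3, 14.8 and 13.7 CPM in shPRKCN, so 32.5% of the shNT level was left (log2 fold change -1.62, SE 0.0634, edgeR adjusted p = 1.64e-33). ECT2, the exchange factor that switches on RhoA at the cell equator, had 56.0, 52.3 and 55.8 CPM against 21.7, 25.2 and 23.7 CPM (log2 fold change -1.22, SE 0.0574, edgeR adjusted p = 4.69e-29). CIT, or citron kinase, which holds the midbody together, had 28.9, 29.97 and 27.9 CPM against 13.7, 14.7 and 12.95 CPM (log2 fold change -1.07, SE 0.0717, edgeR adjusted p = 2.6e-21). RACGAP1, which pairs with KIF23 to form centralspindlin and recruits ECT2, fell by 1.05. Thus transcripts of the furrow's scaffold, its RhoA activator (43.0% left) and the recruiter of that activator (48.3% left) were all called lower. PRC1, the bundler of the central spindle, changed least, from 99.5, 102 and 103.6 CPM to 61.9, 59.2 and 61.0 CPM (log2 fold change -0.75, SE 0.0437, edgeR adjusted p = 3.97e-24).

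Among the general parts that these genes organise, the share called lower was near that of all genes. RHOA itself was at 569.6 ± 12.8 CPM in shNT and 569.7 ± 9.01 CPM in shPRKCN, a log2 fold change that rounds to 0.00 (edgeR adjusted p = 0.992). Over 20 genes of actomyosin, septins and membrane abscission the median log2 fold change was -0.0016. MYH10 (108.9 ± 2.27 to 61.2 ± 0.555 CPM, -0.83), a non-muscle myosin heavy chain, and ROCK2 (-0.69), a RhoA-dependent kinase, were called lower (10%, against 10.6% of all genes tested). None was called higher by edgeR or by DESeq2, against 6.15% of all genes tested by edgeR. At the adjusted p alone 7 of these 20 were lower (35%, against 27.8% of all genes tested) and 6 higher (30%, against 26.5%), both near the shares over all genes, and the counts were equal at the unadjusted p. The most positive was MYH9, the other main non-muscle myosin heavy chain here, at 1380 ± 19.8 CPM in shNT and 1790 ± 54.6 CPM in shPRKCN (0.38).

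Among condensin I, topoisomerase II and the chromosome surface 6 of 7 genes were called lower (median log2 fold change -0.89). MKI67, the antigen Ki-67 that coats mitotic chromosomes (chr10:128096659-128126423), had 741, 742 and 674 CPM in shNT and 290.7, 282 and 287 CPM in shPRKCN (log2 fold change -1.33, SE 0.0353, edgeR adjusted p = 7.45e-43). TOP2A, the topoisomerase that untangles sister DNA, went from 500.5, 499.6 and 481 CPM to 243, 235 and 243 CPM (log2 fold change -1.04, SE 0.0341, edgeR adjusted p = 1.05e-37). Both are abundant, and no shPRKCN library came near the shNT range.

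The 5 subunits of condensin I, which assemble into 1 complex, had log2 fold changes from -1.19 to -0.53. NCAPG, a HEAT-repeat subunit (chr4:17810979-17844865), gave 101.5, 96.5 and 101 CPM in shNT and 42.7, 40.6 and 47.5 CPM in shPRKCN (log2 fold change -1.19, SE 0.0485, edgeR adjusted p = 1.62e-32). The other HEAT-repeat subunit, NCAPD2, was at 257.5, 253 and 254 CPM against 177, 179.7 and 173 CPM (log2 fold change -0.53, SE 0.0354, edgeR adjusted p = 2.65e-21), apart in every library but within the fold limit. The kleisin NCAPH fell by 0.85, and the ATPases SMC2 and SMC4, which condensin II also uses, by 0.89 and 0.74. The log2 ratio of NCAPG to NCAPD2 differed by -0.66 between groups (shPRKCN minus shNT, SD 0.0318 in shNT and 0.142 in shPRKCN), 1 of the 6 pairs named above. Of the 3 subunits particular to condensin II, NCAPG2 was called lower at -0.90, while NCAPH2 (-0.51) and NCAPD3 (-0.48) were lower at the adjusted p alone.

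Cohesin is the ring that holds sister chromatids together and also shapes interphase chromatin. Of 13 genes of cohesin and its regulators 2 were called lower (15.4%, against 10.6% of all genes tested), ESCO2 (21.5 ± 1.22 to 10.2 ± 0.839 CPM, log2 fold change -1.08), the acetyltransferase that seals cohesion in S phase, and CDCA5, or sororin (109.4 ± 6.03 to 61.2 ± 3.00 CPM, -0.84), which protects it until anaphase. The ring subunits SMC1A (-0.43), RAD21 (-0.40) and SMC3 (-0.27) were lower at the adjusted p within the fold limit. The median over the 13 was -0.27, and the most positive gene was the loader subunit MAU2 at 0.14 (65.5 ± 4.73 to 72.3 ± 3.56 CPM).

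The Aurora kinases and the chromosomal passenger complex, which correct faulty attachments of chromosomes and then mark the site of cleavage, formed a list of 7 genes. Of these 6 were called lower (85.7%, against 10.6% of all genes tested) and the median log2 fold change was -0.89. HASPIN, the histone kinase that recruits the complex to centromeres, fell by 1.22 (23.8 ± 1.36 to 10.2 ± 0.759 CPM), CDCA8 by 1.02, AURKB by 0.97, BIRC5 by 0.89, AURKA by 0.71 and INCENP by 0.67. BORA, a cofactor of AURKA, was at 9.198 ± 0.496 CPM in shNT and 8.33 ± 0.101 CPM in shPRKCN (log2 fold change -0.14, SE 0.107, edgeR adjusted p = 0.264). Of 15 genes of the phosphatases that undo mitotic phosphorylation (PP1, PP2A and its inhibitors ENSA and ARPP19), none was called in either direction by edgeR or by DESeq2. The shares over all genes tested, 10.6% called lower and 6.15% higher by edgeR, also amount to few genes in a list of 15. At the adjusted p alone 8 were lower (53.3%, against 27.8% of all genes tested) and 1 higher (6.67%, against 26.5%). At an unadjusted p under 0.05 the counts were 8 (53.3%, against 29.7%) and 2 (13.3%, against 28.7%). Log2 fold changes ran from -0.24 for PPP2R5C to 0.18 for PPP1CA.

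Among 15 genes of the complexes that occupy CHR or CCAAT elements, 3 were called lower (20%, against 10.6% of all genes tested) and 1 higher (6.67%, against 6.15%). At the adjusted p alone 9 were lower (60%, against 27.8%) and 4 higher (26.7%, against 26.5%). MYBL2 (B-MYB), the activator that joins MuvB, was at 223, 222 and 236 CPM in shNT and 136, 134 and 125.7 CPM in shPRKCN (log2 fold change -0.78, SE 0.0381, edgeR adjusted p = 2.67e-28). FOXM1, the activator that follows it in G2, was at 97.7, 92.1 and 95.4 CPM against 60.8, 59.4 and 56.3 CPM (log2 fold change -0.69, SE 0.0450, edgeR adjusted p = 6.75e-22). LIN9, a MuvB core subunit, fell by 0.75. The other core genes LIN52 (-0.53), LIN54 (-0.51), LIN37 (-0.26) and RBBP4 (-0.08) were lower at the adjusted p within the fold limit. E2F5, a repressive E2F, rose from 9.46, 8.95 and 9.59 CPM to 16.7, 14.9 and 16.3 CPM (log2 fold change 0.77, SE 0.0918, edgeR adjusted p = 4.21e-11). The 4 called genes were apart in every library. The related repressors RBL2 (p130, 0.32) and E2F4 (0.23) were higher at the adjusted p within the fold limit, RBL1 (p107) was lower at -0.47, and the NF-Y subunits stood at -0.05 (NFYA, edgeR adjusted p = 0.367), -0.04 (NFYB, 0.652) and 0.13 (NFYC, 0.0475).

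Some of these counts could hold reads of other genes. In the GENCODE annotation of GRCh38 24 of the 53 genes share exon bases with another gene. The largest overlaps with a listed gene on the opposite strand were NCAPG with LCORL (33.1% of the exon bases of NCAPG), PKMYT1 with PAQR4 (24.5%), SMC4 with TRIM59 (18.5%) and MASTL with YME1L1 (12.2%). KIF20A also shares 1.72% of its exon bases with CDC23, an APC/C core subunit. Since whether counting used strand was not given, reads in these stretches cannot be told apart. Protein-coding models on the same strand cover 62.2% of the exon bases of NUSAP1 and 57.6% of those of PRC1 and are not among the genes listed. The near-identical coding copies KIF4B and PTTG2 reached at most 24 and 8 counts in a library, few beside KIF4A and PTTG1. Another 20 pseudogene copies of the 53 genes are not listed, so reads they may share with their parents are uncertain.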

How the data were processed

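Cells of 6 samples (3 shNT, 3 shPRKCN) were collected on day 3 of infection, and their total RNA was sequenced by a service company. The authors deposited raw gene counts and FPKM for the same genes and libraries. The submitters' processing notes name FastQC, HISAT2, StringTie and the build GRCh38.p14, and the paper names DESeq2 for its comparison. The annotation, the counting program and the strand setting were not given in the sources used here. From the deposited counts, genes were kept by edgeR's filterByExpr, scaled by TMM and tested by the quasi-likelihood test of edgeR 4.0.16 in R 4.3.3, with Benjamini-Hochberg adjustment over all 13971 genes. A gene was called at an adjusted p under 0.05 and an absolute log2 fold change above 0.58. FPKM served only to compare levels between genes and as an alternative. With 3 libraries against 3, the smallest p an exact permutation test allows is 0.1; it was used only for 6 gene pairs.

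The test was checked on simulated counts. The members and lists were chosen with earlier results of these data known, and no set test was run. In each group the 3 most negative genes and the most positive were named with all library values, with every gene that was not lower at the threshold; in each list of related machinery the extremes were named, with all called genes in lists of at most 15. Other genes and pairs were picked after their values were seen. Gene coordinates and promoter sequence come from RefSeq and exon overlaps from GENCODE, on GRCh38. Alternatives were RLE, upper-quartile or no scaling, DESeq2 1.42.0, no filter, at least 10 counts in every library, a replicate block, leaving out each library, limma 3.58.1 on FPKM after a pseudocount of 1 or 0.1 and log2, a test against the fold limit (glmTreat) and no fold limit.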

Additional observations from a re-analysis of the deposited data

How the results depend on the processing

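The count of mitotic genes called lower was 49 with RLE, upper-quartile and library-size scaling, DESeq2, no filter, a minimum of 10 counts, every left-out library and limma on log2(FPKM + 0.1). It was 46 with limma on log2(FPKM + 1), where KIF4A, KIF20B and MASTL came within the fold limit, 44 with glmTreat against the fold limit and 52 with no fold limit, and in all of these settings none was called higher. The median log2 fold change of the 53 genes, -0.887, was -0.879 with upper-quartile scaling, -0.867 with library size alone, -0.881 with no filter, -0.806 and -0.857 with limma on log2(FPKM + 1) and log2(FPKM + 0.1), and -0.916 to -0.889 when a library was left out. The pseudocount pulls log2 values of low genes toward 0 by construction. With a replicate block the median was -0.888 and 49 genes were called. Same-numbered libraries had correlations of their deviations from the group means of -0.059, -0.020 and -0.016, so no pairing was seen. With 3 libraries a group and the counting noise of low genes included, these values cannot exclude that same-numbered libraries were handled together. Over the 13971 genes tested 1475 were called lower and 859 higher, and limma on log2(FPKM + 1), fitted on all 21850 genes, called 648 and 315. Each of 810 further values, for single genes under these alternatives, kept its direction and its side of the adjusted p threshold. A depth of at least 35625564 counts did not limit these genes, but 3 libraries a group, with no statement that they were separate cultures, and 1 knockdown arm limit what they cover.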
